A study of Mus musculus with 12 samples.

Results

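The unfolded protein response and the integrated stress response were followed through 10 genes, Atf4, Ddit3, Hspa5, Hsp90b1, Trib3, Chac1, Xbp1, Asns, Herpud1 and Ppp1r15a, in glomerulus-enriched RNA of a pair of BALB/c mouse substrains. The genes were taken by symbol from the deposited gene counts, which held each of the 10 among 26264 symbols. Libraries came from male mice obtained at 8 weeks of age of the inbred albino strains BALB/cAjcl, here AJcl, and BALB/cByJcl, here ByJcl, from CLEA Japan. There were 3 libraries of each substrain from untreated mice at baseline and 3 of each substrain at Day 5 after 1 intravenous dose of adriamycin (ADR, doxorubicin) of 10 mg/kg. Glomeruli were collected with magnetic beads perfused into the glomerular capillaries, so all libraries passed through collagenase digestion at 37 °C. The labels give all libraries the batch 1. Total counts per library ranged from 42198416 to 54687045, and 3 counts corresponded to 0.0546 to 0.0693 CPM, which is counts scaled to library size. This floor takes in counting error alone.

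The endoplasmic reticulum (ER) senses misfolded protein through the membrane proteins PERK, IRE1 and ATF6. IRE1 splices the Xbp1 transcript, ATF6 is cleaved to a transcription factor, and both raise the genes of ER chaperones and of ER-associated degradation. PERK and the other eIF2α kinases phosphorylate eIF2α, which slows translation while raising that of Atf4, the factor behind genes of amino acid supply, and this common output is called the integrated stress response. In podocytes, the filtering epithelial cells of the glomerulus, much membrane and slit diaphragm protein is folded in the ER.

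The promoters of 5 of the genes are shown because they carry the DNA elements through which these arms are known to act. The 150 bases before the RefSeq transcription start (GRCm38.p6) are written 5′ to 3′ on the gene's strand, with matched elements in capitals. Searched on both strands were the ER stress response element (ERSE: CCAAT, 9 bases, CCACG), its shorter form ERSE-II (ATTGG, 1 base, CCACG), the C/EBP-ATF response element (CARE: TGATGNAA) and the cyclic AMP response element (CRE: TGACGTCA). Hspa5 and Hsp90b1 are shown for ERSE at chr2:34771940-34772089 (plus strand) and chr10:86705445-86705594 (minus strand), Herpud1 for ERSE-II and CARE at chr8:94386279-94386428 (plus strand), Asns for CARE at chr6:7693210-7693359 (minus strand) and Ppp1r15a for CRE at chr7:45526269-45526418 (minus strand).
Hspa5: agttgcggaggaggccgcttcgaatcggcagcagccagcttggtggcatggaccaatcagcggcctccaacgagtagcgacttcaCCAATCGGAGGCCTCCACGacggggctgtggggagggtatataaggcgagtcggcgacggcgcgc
Hsp90b1: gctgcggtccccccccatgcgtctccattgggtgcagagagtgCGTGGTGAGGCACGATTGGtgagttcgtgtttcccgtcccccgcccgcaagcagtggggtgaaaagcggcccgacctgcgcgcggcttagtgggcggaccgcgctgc
Herpud1: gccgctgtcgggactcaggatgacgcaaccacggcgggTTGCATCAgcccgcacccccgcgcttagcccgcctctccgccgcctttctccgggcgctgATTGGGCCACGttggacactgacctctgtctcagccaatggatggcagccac
Asns: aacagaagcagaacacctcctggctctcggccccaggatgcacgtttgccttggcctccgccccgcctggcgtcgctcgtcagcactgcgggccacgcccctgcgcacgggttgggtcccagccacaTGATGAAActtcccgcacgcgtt
Ppp1r15a: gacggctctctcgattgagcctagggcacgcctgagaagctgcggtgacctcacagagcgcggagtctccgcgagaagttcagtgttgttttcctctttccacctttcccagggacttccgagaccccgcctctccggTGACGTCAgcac

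All 10 genes had a promoter in the RefSeq table, and the search covered the 250 bases before each start. ERSE was present in 2 of the 10 genes and in 0.113% of all 32851 promoters, ERSE-II in 1 of the 10 and in 0.0304% of all. CARE stood in 3 of the 10, Asns, Herpud1 and Chac1 (in Chac1 at -193 to -186, outside the printed stretch), against 3.45% of all promoters. CRE stood in 1 of the 10 against 1.55% of all. Among the genes listed as ATF4 and CHOP targets, 7 of the 23 with a promoter in the table held CARE, and among ER chaperones 6 of 18 held ERSE. A match is a stretch of letters and was not tested as a binding site.

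At Day 5 the ByJcl libraries held more RNA of Asns and Ppp1r15a than at baseline, while the ER chaperones Hspa5 and Hsp90b1 and the factor Xbp1 had negative fold changes in both substrains that did not pass the test. In AJcl none of the 10 genes passed the test. The quasi-likelihood test of edgeR, adjusted by Benjamini-Hochberg, was run over 17002 genes and 11 libraries, leaving out AJcl Day 5 replicate 1, which the study left out of its primary comparison for reduced glomerular purity. All 10 genes passed the filter on low counts. In ByJcl 2 of the 10 were called at an adjusted p below 0.05, both higher, against 10.6% of all tested genes (1800), 5.75% called higher and 4.83% called lower, and 5 of the 10 had an unadjusted p below 0.05, against 26.8% of all. In AJcl 0 of the 10 were called by edgeR, against 0.312% of all tested genes, and 0 had an unadjusted p below 0.05, against 9.8% of all. DESeq2 called 3 of the 10 in ByJcl, against 15.8% of all, and 0 in AJcl, against 1.77%. Baseline and Day 5 counts were deposited as separate tables, so table and ADR cannot be told apart in these comparisons. The p-values measure the spread between these libraries, and the labels do not say how many animals each represents.

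**Figure D1:**
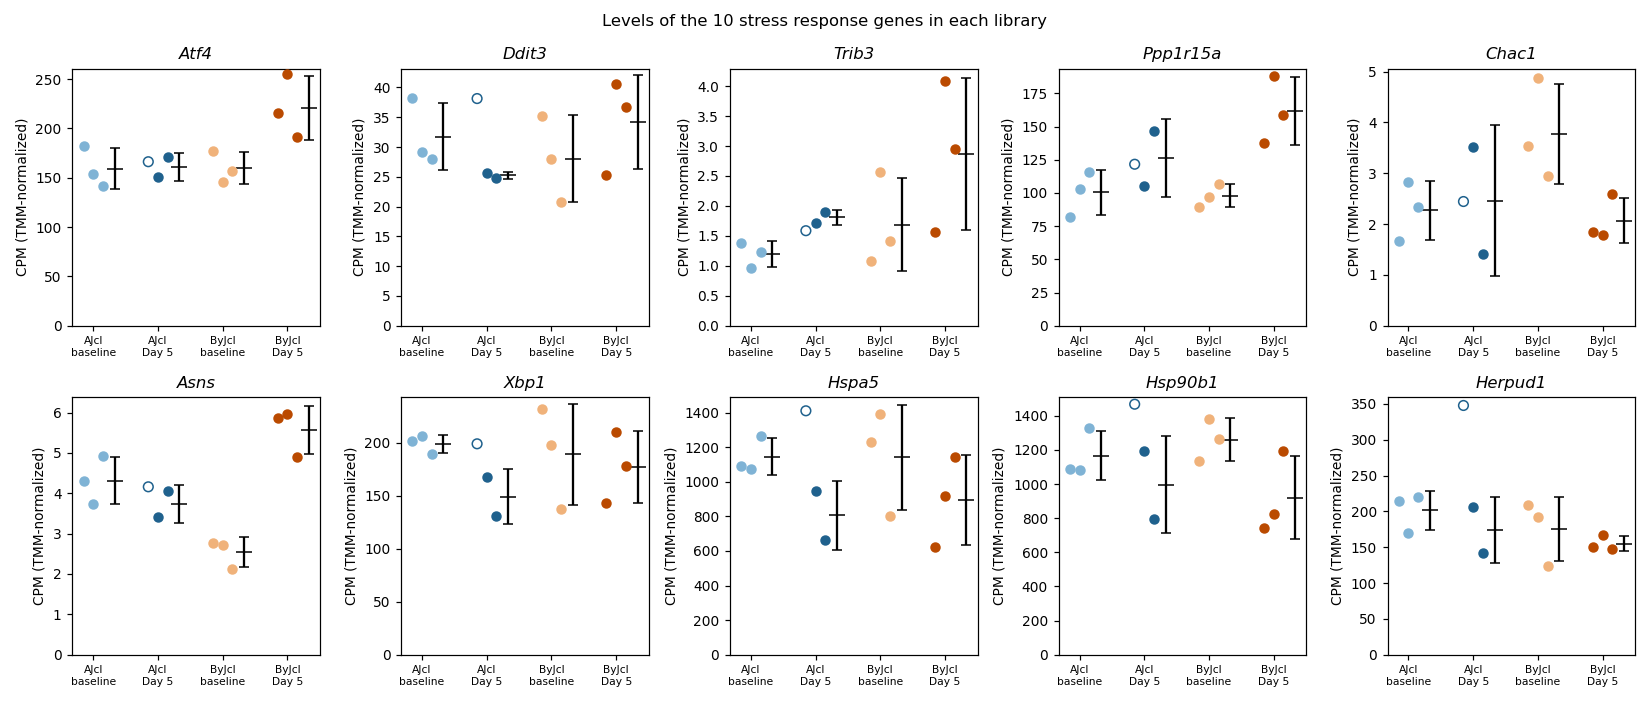
TMM-normalized CPM (y axis, from 0) of the 10 genes in each of the 12 libraries, by substrain and time, with the mean and SD of the filled points at the right of each group. The open circle is AJcl Day 5 replicate 1, left out of the tests, and the 3 ByJcl Day 5 points of Asns lie above all 3 ByJcl baseline points.

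The genes spanned a wide range of abundance. Per kb of annotated exon (GENCODE, all exons of the gene merged), AJcl baseline levels were 206 ± 19.2 CPM per kb for Hspa5 and 191 ± 23.2 for Hsp90b1 (SD, n = 3). Next came Atf4 at 67.1 ± 8.79, Herpud1 at 52.0 ± 7.05, Ppp1r15a at 34.2 ± 5.80 and Xbp1 at 28.7 ± 1.22 CPM per kb. Ddit3 stood at 5.69 ± 1.00, Chac1 at 0.876 ± 0.225, Asns at 0.369 ± 0.0505 and Trib3 at 0.354 ± 0.0623 CPM per kb. Hspa5 and Hsp90b1 differed by less than their SD, as did Asns and Trib3. Trib3 had the fewest counts, 46 to 178 per library, so each gene was far above the 3-count floor in each library.

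Atf4 (GRCm39 chr15:80139372-80141745, plus strand) encodes the transcription factor of the integrated stress response, which is controlled mainly in translation. Its level was 182, 154 and 142 CPM in the AJcl baseline libraries and 166, 151 and 171 CPM at AJcl Day 5, replicate 1 first. In ByJcl it was 177, 145 and 157 CPM at baseline and 216, 255 and 191 CPM at Day 5. The ByJcl Day 5 libraries were above all 9 others, while the other 3 groups overlapped. Day 5 against baseline gave a log2 fold change (log2FC) of 0.45 (SE 0.14) in ByJcl with an edgeR adjusted p of 0.0621, just outside the threshold, and DESeq2 called it at an adjusted p of 0.0206. In AJcl the log2FC was 0.02 (SE 0.15).

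Ddit3 (chr10:127124268-127132163, plus strand) encodes CHOP, the factor tied to cell death after lasting ER stress. Levels ran from 28.0 to 38.2 CPM at AJcl baseline and from 20.7 to 35.3 at ByJcl baseline. At Day 5 they were 38.1, 25.7 and 24.9 CPM in AJcl and 25.3, 40.5 and 36.7 in ByJcl, and the ByJcl groups overlapped. The log2FC was -0.32 (SE 0.25) in AJcl and 0.28 (SE 0.22) in ByJcl, and neither passed the test. The AJcl value was -0.10 (SE 0.24) with replicate 1 included. The GENCODE annotation carries 2 overlapping gene models of this name.

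Trib3 (chr2:152179337-152191958, minus strand) encodes a pseudokinase that is a target of ATF4 and CHOP. ByJcl Day 5 levels were 1.57, 4.09 and 2.95 CPM against 1.08, 2.56 and 1.42 at baseline, and AJcl Day 5 levels were 1.59, 1.72 and 1.89 CPM against 1.39, 0.970 and 1.24. The AJcl groups did not overlap and the ByJcl groups did. The log2FC was positive in both, 0.61 (SE 0.44) in AJcl and 0.76 (SE 0.39) in ByJcl, with edgeR adjusted p of 0.738 and 0.246.

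Ppp1r15a (chr7:45172340-45175692, minus strand) encodes GADD34, which brings a phosphatase to eIF2α and so ends the translational block. It stood at 89.6, 97.3 and 107 CPM in the ByJcl baseline libraries and rose to 138, 188 and 159 CPM at Day 5. All ByJcl Day 5 libraries exceeded all ByJcl baseline libraries, with a log2FC of 0.71 (SE 0.17, edgeR adjusted p = 0.0233). AJcl had 82.1, 103 and 116 CPM at baseline and 122, 105 and 147 CPM at Day 5, which overlapped, with a log2FC of 0.34 (SE 0.19, edgeR adjusted p = 0.606). The ByJcl call was lost without ByJcl baseline replicate 1 (0.65, adjusted p = 0.0839), ByJcl baseline replicate 2 (0.71, adjusted p = 0.0780) or ByJcl Day 5 replicate 2 (0.59, adjusted p = 0.0979).

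Asns (chr6:7671667-7728461, minus strand) encodes asparagine synthetase, an ATF4 target of the amino acid response. Its levels were 2.78, 2.73 and 2.11 CPM in the ByJcl baseline libraries, the lowest of all 12, and 5.87, 5.97 and 4.90 CPM in the ByJcl Day 5 libraries. AJcl had 4.30, 3.73 and 4.92 CPM at baseline and 4.16, 3.40 and 4.07 CPM at Day 5, so its groups overlapped. In ByJcl Asns rose with a log2FC of 1.12 (SE 0.20, edgeR adjusted p = 0.00643), the largest of the 10 genes, and in AJcl the log2FC was -0.19 (SE 0.22, adjusted p = 0.843). The ByJcl call was kept under each of the 21 alternatives run, with log2FC from 1.01 to 1.22. Asns is a low gene, 116 to 262 counts per library.

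Chac1 (chr2:119180757-119184866, plus strand) encodes an enzyme that degrades glutathione and is a target of ATF4. It ran opposite to Asns in ByJcl, from 3.53, 4.87 and 2.95 CPM at baseline to 1.84, 1.79 and 2.59 CPM at Day 5, without overlap. The log2FC was -0.88 (SE 0.36, edgeR adjusted p = 0.142) and did not pass the test. AJcl levels were 1.66, 2.83 and 2.33 CPM at baseline and 2.45, 3.51 and 1.41 CPM at Day 5, which overlapped.

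Xbp1 (chr11:5470606-5483027, plus strand) is counted as a whole gene here, so spliced and unspliced transcript are not separated. ByJcl levels ran from 137 to 232 CPM at baseline and from 143 to 210 CPM at Day 5, with a log2FC of -0.11 (SE 0.19). AJcl levels were 202, 206 and 190 CPM at baseline and 199, 168 and 131 CPM at Day 5. Without replicate 1 the AJcl Day 5 libraries lay below baseline (log2FC -0.41, SE 0.22, edgeR adjusted p = 0.602), and with it the groups overlapped (log2FC -0.26, SE 0.21).

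Hspa5 (chr2:34661982-34668880, plus strand) encodes BiP, the main ER chaperone, and its promoter above holds an ERSE. Levels were 1090, 1076 and 1268 CPM at AJcl baseline and 1411, 948 and 663 CPM at AJcl Day 5. ByJcl had 1231, 1391 and 802 CPM at baseline and 620, 920 and 1144 CPM at Day 5, which overlapped. The log2FC was -0.50 (SE 0.28) in AJcl and -0.36 (SE 0.25) in ByJcl, neither past the test. With AJcl Day 5 replicate 1 included, the AJcl value was -0.18 (SE 0.29).

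Hsp90b1 (chr10:86526073-86541446, minus strand), the ER form of HSP90, stood at 1133, 1383 and 1264 CPM in the ByJcl baseline libraries and at 743, 822 and 1196 CPM at Day 5. AJcl had 1090, 1080 and 1331 CPM at baseline and 1468, 1196 and 796 CPM at Day 5, and both substrains overlapped between times. The log2FC was -0.22 (SE 0.23) in AJcl and -0.46 (SE 0.20, edgeR adjusted p = 0.167) in ByJcl, and the AJcl value was -0.02 (SE 0.23) with replicate 1 included. Only without ByJcl Day 5 replicate 3, among the alternatives run, was it called in ByJcl (-0.69, adjusted p = 0.0479).

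Herpud1 (chr8:95113022-95123141, plus strand) encodes an ER membrane protein of ER-associated degradation. Its levels were 209, 192 and 124 CPM at ByJcl baseline and 151, 166 and 147 CPM at ByJcl Day 5, and 215, 170 and 220 CPM at AJcl baseline. AJcl Day 5 held 348 CPM in replicate 1, the highest of the 12 libraries, and 206 and 142 CPM in the others. The AJcl log2FC was -0.20 (SE 0.21) without replicate 1 and 0.20 (SE 0.28) with it, past the test in neither, and in ByJcl it was -0.19 (SE 0.19).

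**Figure D2:**
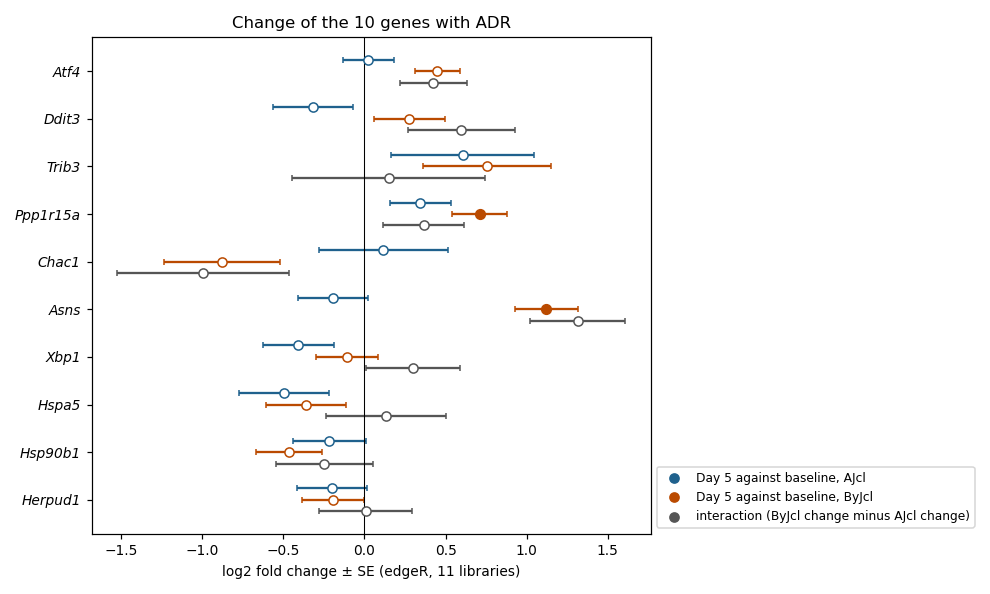
log2FC with SE (x axis) from edgeR over 11 libraries for the 10 genes (y axis), Day 5 against baseline in AJcl (blue) and ByJcl (orange) and their difference (grey). Filled points have an adjusted p below 0.05, which only Ppp1r15a (0.71) and Asns (1.12) in ByJcl reached.

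Between substrains, the groups that differed in level were read in the same fit. At baseline 0 of the 10 genes were called by edgeR, against 0.159% of all tested genes, 1 had an unadjusted p below 0.05, against 8.34% of all, and DESeq2 called 0, against 0.594%. That gene was Asns, lower in ByJcl (log2FC -0.74, SE 0.20, edgeR adjusted p = 0.447). Baseline libraries of the substrains did not overlap for 2 of the 10, Asns (lower in ByJcl) and Chac1 (higher, log2FC 0.76, SE 0.35), against 14.3% of all tested genes. At Day 5 edgeR called 0 of the 10, against 0.165% of all, and DESeq2 0, against 3.15%, while Atf4 (log2FC 0.46, SE 0.16) and Asns (0.58, SE 0.22) had unadjusted p below 0.05, as had 14% of all tested genes, and edgeR adjusted p of 0.254 and 0.286. For these 2 of the 10 the Day 5 libraries did not overlap between substrains, against 33% of all tested genes, or 19.3% with AJcl Day 5 replicate 1 included. Over time, 4 of the 10 did not overlap in ByJcl (Atf4, Asns and Ppp1r15a higher, Chac1 lower) against 33.1% of all, and 4 in AJcl (Trib3 higher, Ddit3, Hspa5 and Xbp1 lower) against 25.9% of all. With replicate 1 included, 1 of the 10, Trib3, was without overlap in AJcl, against 13.4% of all.

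Whether the ADR change differed between substrains was tested as the interaction. edgeR called 0 of the 10, as for 0% of all tested genes, and 1 of the 10, Asns, had an unadjusted p below 0.05, against 8.02% of all. For Asns the ByJcl change exceeded the AJcl change by a log2 value of 1.31 (SE 0.29, edgeR adjusted p = 0.620, 0.223 to 0.987 over the other edgeR fits run), and DESeq2 called it (1.34, adjusted p = 0.0295), as 1 of the 10 against 0.129% of all. Ppp1r15a gave 0.36 (SE 0.25) and Atf4 0.42 (SE 0.21) with edgeR adjusted p of 0.715 and 0.634. The Ppp1r15a call in ByJcl and its absence in AJcl, tested on 2 Day 5 libraries, are thus not shown to differ.

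The other genes of the pathway were read by branch, each list described by its counts and median. Among ATF4 and CHOP targets, 12 of the 26 tested genes rose in ByJcl at Day 5 and 0 fell, against 5.75% of all tested genes called higher and 4.83% called lower, with a median log2FC of 0.67 against 0.0066 over all tested genes. In AJcl edgeR called 0 of the 26, against 0.312% of all tested genes, with a median of 0.22, which was 0.38 over all 12 libraries. There 7 had an unadjusted p below 0.05, against 9.8% of all, DESeq2 called 3, against 1.77%, and edgeR with the tubule covariate, the summed proximal tubule markers, called 2, against 0.765%. The 12 genes called in ByJcl all had positive log2FC in AJcl over the 11 libraries, from 0.13 to 2.02, and over all 12 libraries Slc7a1 turned negative (-0.17). For the interaction edgeR and DESeq2 each called 0 of the 26, against 0% and 0.129% of all, and 4 had an unadjusted p below 0.05, against 8.02%. Between substrains at Day 5 edgeR called 0, against 0.165% of all, and over all 12 libraries 1, Nupr1 (adjusted p = 0.0488). There 8 had an unadjusted p below 0.05, against 14%, and DESeq2 called 3, against 3.15%. Between substrains at baseline edgeR and DESeq2 each called 0, against 0.159% and 0.594%, and 4 had an unadjusted p below 0.05, against 8.34%. The ByJcl count was 6 without ByJcl Day 5 replicate 2 and 7 without ByJcl baseline replicate 1 or replicate 2.

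**Figure D3:**
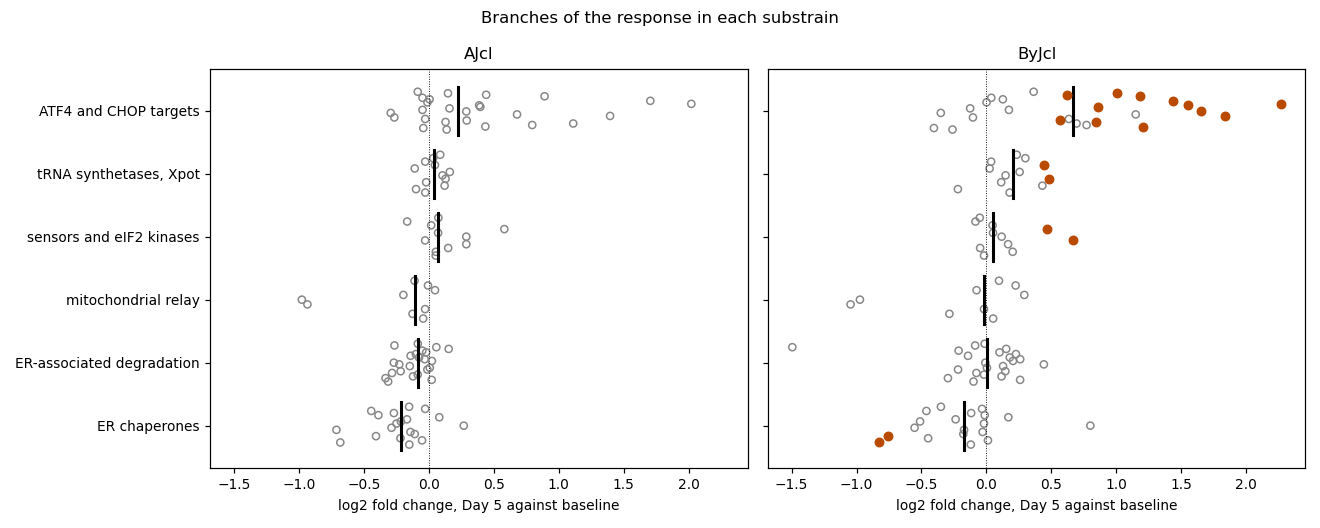
log2FC of Day 5 against baseline (x axis) for each tested gene of 6 lists (y axis) in AJcl (left) and ByJcl (right), with filled points for an edgeR adjusted p below 0.05 and a black bar at each list's median. In ByJcl 12 ATF4 and CHOP targets are filled on the right side, and 2 ER chaperones on the left.

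Psat1 encodes an enzyme of serine synthesis. Its ByJcl levels went from 4.26, 4.70 and 5.79 CPM at baseline to 17.1, 17.8 and 12.1 CPM at Day 5 (log2FC 1.65, SE 0.26, edgeR adjusted p = 0.00409). In AJcl it was 10.1, 5.82 and 13.0 CPM at baseline and 16.6, 11.2 and 12.0 CPM at Day 5 (log2FC 0.29), which overlapped. Psat1 was lower in each ByJcl baseline library than in each AJcl baseline library (log2FC -0.93, edgeR adjusted p = 0.501). Baseline libraries of the substrains did not overlap for 14.3% of all tested genes.

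Nupr1, a stress-induced nuclear protein, went in ByJcl from 134, 129 and 122 CPM to 203, 275 and 226 CPM (log2FC 0.86, edgeR adjusted p = 0.00427). Atf5, a factor related to ATF4, went from 33.7, 35.2 and 34.6 CPM to 53.4, 49.9 and 57.7 CPM (log2FC 0.62, edgeR adjusted p = 0.00427). In AJcl Nupr1 gave 0.40 and Atf5 0.44 (edgeR adjusted p = 0.389 and 0.174), and DESeq2 called Atf5 there (adjusted p = 0.0292). Both genes were without overlap between the times in each substrain. The remaining 9, named after their values were seen, were Sesn2 (log2FC 1.84), Mthfd2 (1.55), Gdf15 (2.27), Slc3a2 (0.57), Slc7a5 (1.20), Slc7a1 (0.85), Cebpb (1.18), Atf3 (1.00) and Ddit4 (1.44). Slc7a5, Slc3a2 and Slc7a1 encode amino acid transporters and Mthfd2 a mitochondrial folate enzyme. Sesn2, Gdf15 and Atf3 are also known as p53 targets. Gdf15 had log2FC of 2.02 in AJcl and 2.27 in ByJcl, and Ddit4 1.71 and 1.44. Ddit4 stood at 91.9, 126 and 29.5 CPM in the ByJcl Day 5 libraries, the last within the ByJcl baseline range of 26.9 to 35.4 CPM. Atf3 and Slc7a1 had 0.15 and 0.13 in AJcl.

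**Figure D4:**
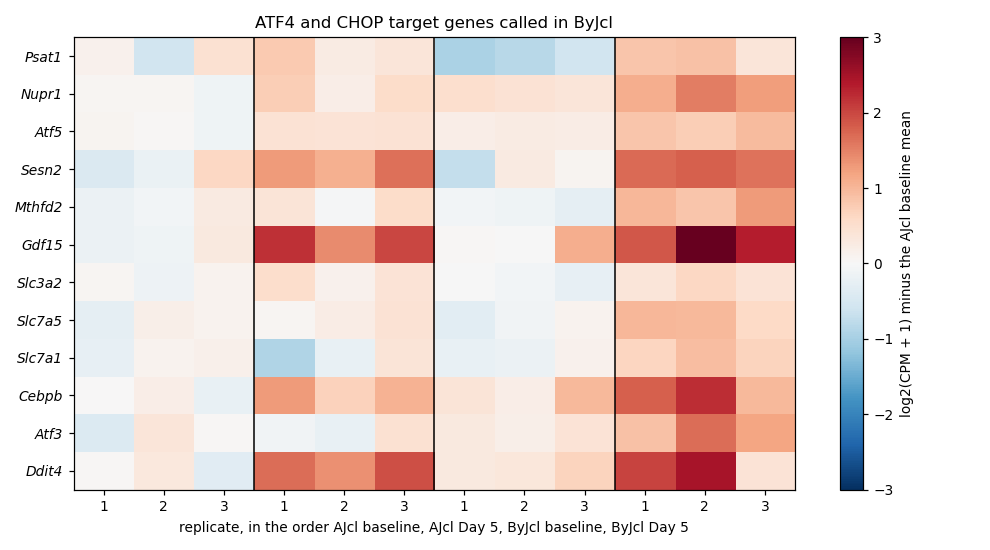
log2(CPM + 1) minus the AJcl baseline mean (colour, red higher, blue lower) for the 12 ATF4 and CHOP targets called in ByJcl (rows) in the 12 libraries (columns, 4 groups of 3). ByJcl Day 5 is red throughout, which is largely set by choosing rows called higher in ByJcl. In all 3 AJcl Day 5 libraries, 9 of the 12 (all but Atf3, Mthfd2 and Slc7a1) are above the AJcl baseline mean. No share over all tested genes was taken for that count. Psat1 is blue in the 3 ByJcl baseline libraries.

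Of the list of cytosolic tRNA synthetases of the amino acid response, which also holds the tRNA export receptor Xpot, 2 of the 12 tested genes rose in ByJcl, where 10.6% of all tested genes were called and 5.75% rose. They were Gars (log2FC 0.45, edgeR adjusted p = 0.0145) and Sars (0.48, adjusted p = 0.0154), the enzymes for glycine and serine. In ByJcl 7 of the 12 had an unadjusted p below 0.05, against 26.8% of all, among them Xpot with a negative log2FC (-0.22), and DESeq2 called 4, against 15.8%. The list's median was 0.21 in ByJcl and 0.04 in AJcl, and over all 12 libraries 0.22 and 0.09. For AJcl edgeR called 0, against 0.312% of all, with 0 at an unadjusted p below 0.05, against 9.8%, and DESeq2 called 0, against 1.77%. Sars was not called over all 12 libraries (adjusted p = 0.0663).

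Among the stress sensors and eIF2α kinases, 2 of 11 rose in ByJcl, where 10.6% of all tested genes were called and 5.75% rose. Eif2s1, which encodes eIF2α itself and is named after its values were seen, went from 43.7, 35.6 and 42.0 CPM to 64.3, 73.8 and 56.8 CPM (log2FC 0.67, SE 0.12, edgeR adjusted p = 0.00796), and its log2FC in AJcl was -0.03. Eif2ak2, the kinase PKR of antiviral defence, gave 0.47 in ByJcl (edgeR adjusted p = 0.0497, and 0.0877 over all 12 libraries) and 0.58 in AJcl (adjusted p = 0.189), an interaction of -0.11. For the ER sensors the ByJcl log2FC was 0.17 for Ern1 (IRE1), 0.05 for Eif2ak3 (PERK) and -0.05 for Atf6, and Eif2ak1 and Eif2ak4, the kinases for haem lack and amino acid lack, gave 0.05 and 0.12. None of these 5 passed edgeR's test in either substrain.

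Of the ER chaperones and folding enzymes, 2 of 19 tested fell in ByJcl and 0 rose. Of all tested genes 4.83% were called lower there, 5.75% higher and 10.6% in either direction. Pdia4, a disulfide isomerase, went from 262, 292 and 227 CPM to 151, 125 and 190 CPM (log2FC -0.76, SE 0.17, edgeR adjusted p = 0.0194). Sdf2l1, a partner of BiP, went from 42.5, 48.6 and 33.3 CPM to 18.6, 19.8 and 32.2 CPM (log2FC -0.83, SE 0.24, edgeR adjusted p = 0.0476). The median was -0.17 in ByJcl and -0.22 in AJcl, against 0.0066 and -0.0091 over all tested genes. Over all 12 libraries the list's median was -0.16 in ByJcl and -0.10 in AJcl. Of the 19 values over the 11 libraries, 3 were positive in ByJcl and 2 in AJcl. In ByJcl 6 had an unadjusted p below 0.05, against 26.8% of all, and DESeq2 called 4, against 15.8%. In AJcl edgeR called 0, against 0.312% of all, 3 had an unadjusted p below 0.05, against 9.8%, and DESeq2 called 0, against 1.77%. The calls changed with single libraries. Of the list 0 were called without ByJcl baseline replicate 1, ByJcl baseline replicate 2 or ByJcl Day 5 replicate 2. There was 1 called, lower, without AJcl baseline replicate 1 or replicate 2 or ByJcl baseline replicate 3, and 1, higher, without ByJcl Day 5 replicate 1. Without ByJcl Day 5 replicate 3 there were 6, of which 5 were lower and 1 higher. Fkbp14, a prolyl isomerase named after its values were seen, had a ByJcl log2FC of 0.80 (edgeR adjusted p = 0.0522), and DESeq2 called it (adjusted p = 0.00809). Sdf2l1 was not called over all 12 libraries (adjusted p = 0.169).

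ER-associated degradation and translocation genes had 0 of 23 called by edgeR in ByJcl (5 at an unadjusted p below 0.05, DESeq2 1) and 0 in AJcl (2 at an unadjusted p below 0.05, DESeq2 0). For the mitochondrial stress relay and chaperones edgeR called 0 of 9 in ByJcl (2 at an unadjusted p below 0.05, DESeq2 2) and 0 of 9 in AJcl (2 at an unadjusted p below 0.05, DESeq2 0). Over all tested genes the shares in ByJcl were 10.6% called by edgeR, 26.8% at an unadjusted p below 0.05 and 15.8% called by DESeq2, and in AJcl 0.312%, 9.8% and 1.77%. Median log2FC of these lists lay between -0.11 and 0.0044 over the 11 libraries. Over all 12 libraries the AJcl medians were -0.033 for ER-associated degradation and 0.023 for the mitochondrial list. Of the 9 mitochondrial genes, 4 had positive log2FC in ByJcl and 1 in AJcl. Hspd1 and Hspe1, named after their values were seen, had lower means at Day 5. In ByJcl they went from 257 to 132 and from 65.1 to 31.8 CPM. In AJcl they went from 331 to 167 and from 74.1 to 38.5 CPM (228 and 65.6 with replicate 1).

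Across the 12 libraries some of the 10 genes varied together. Pearson's r of log2(CPM + 1) was 0.815 between Hspa5 and Hsp90b1, 0.799 between Hspa5 and Xbp1 and 0.702 between Hspa5 and Herpud1. Atf4 correlated with Asns at 0.631 and with Ppp1r15a at 0.632, and with Hsp90b1 at -0.707. Ddit3 correlated with Xbp1 at 0.763 and with Hspa5 at 0.538, and Chac1 with Hsp90b1 at 0.665 and with Asns at -0.688. These values describe 12 libraries that fall into 4 groups and share depth and tissue makeup. The genes most like Hspa5 over the same 12 libraries were Creld2 (0.915), Dnajb11 (0.903), Manf (0.897), Sdf2l1 (0.896) and St13 (0.878), of which the first 4 are on the ER chaperone list. For Ddit3 they were Dnajb9 (0.863), Thumpd3 (0.837), Ube2d3 (0.826), Dstn (0.824) and Phax (0.824). For Atf4 they were Gch1 (0.964), Etf1 (0.960), Arf2 (0.952), Pa2g4 (0.951) and Eif4a1 (0.949).

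Podocyte markers, immediate early genes and p53 targets were read beside the 10 genes. Summed levels of 16 podocyte markers ran from 25150 to 28710 CPM at ByJcl baseline and from 14100 to 18580 CPM at ByJcl Day 5, from 20290 to 27400 CPM at AJcl baseline and from 14390 to 21580 CPM at AJcl Day 5. In ByJcl 12 of the 16 fell and 1 rose, against 4.83% and 5.75% of all tested genes. In AJcl edgeR called 0 of the 16, against 0.312% of all, 7 had an unadjusted p below 0.05, against 9.8%, and DESeq2 called 3, against 1.77%. Fewer cells of a type and less RNA per cell cannot be told apart in such bulk samples. Of 18 immediate early genes, which collagenase digestion is known to induce, 12 rose in ByJcl, against 5.75% of all tested genes, and 0 in AJcl by edgeR, against 0.312% called. In AJcl 9 had an unadjusted p below 0.05, against 9.8% of all, and DESeq2 called 2, against 1.77%. All 18 values were positive in both. All libraries passed through the digestion, and what raised these genes at Day 5 was not tested. Their summed level was 4532 to 6651 CPM at ByJcl baseline and 8255 to 10080 CPM at ByJcl Day 5, and in AJcl 4464 to 5311 CPM at baseline and 5577 to 8248 CPM at Day 5, so the times did not overlap in either substrain. Of 14 p53 targets 13 rose in ByJcl and 8 in AJcl, against 5.75% of all tested genes called higher in ByJcl and 0.312% called in AJcl. Across the 12 libraries the podocyte sum had Pearson's r of -0.778 with Ppp1r15a and -0.714 with Asns. The part of podocyte, immediate early and p53 genes in the changes of Asns, Ppp1r15a and the ATF4 and CHOP targets was not tested.

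Tubule RNA differed between libraries. Summed levels of 12 proximal tubule markers ran from 2280 to 7490 CPM at AJcl baseline, from 777 to 3947 at ByJcl baseline, from 797 to 2940 at ByJcl Day 5, and were 11160, 3902 and 2957 CPM at AJcl Day 5. All 10 distal nephron and collecting duct markers had lower values in ByJcl than in AJcl, with a median log2FC of -1.36 at baseline and -1.62 at Day 5. At baseline 4 had an unadjusted p below 0.05, against 8.34% of all tested genes, and edgeR and DESeq2 called 0, against 0.159% and 0.594%. At Day 5 there were 5 at an unadjusted p below 0.05, against 14%, with 0 called by edgeR, against 0.165%, and 1 by DESeq2, against 3.15%. With the proximal tubule sum as a covariate, edgeR called 0 of the 10 genes between substrains at baseline and at Day 5, as without it. The library with 11160 CPM, AJcl Day 5 replicate 1, also had the highest level of the 12 libraries for Hspa5, Hsp90b1 and Herpud1. The sum had Pearson's r of 0.663 with Hsp90b1, 0.544 with Herpud1 and 0.496 with Hspa5, of -0.547 with Atf4, and of -0.159 and -0.059 with Ppp1r15a and Asns. With this sum as a covariate, 2 of the 10 genes were called in ByJcl, Asns (log2FC 1.11) and Ppp1r15a (0.73), against 13.1% of all tested genes, and 0 in AJcl, against 0.765%.

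**Figure D5:**
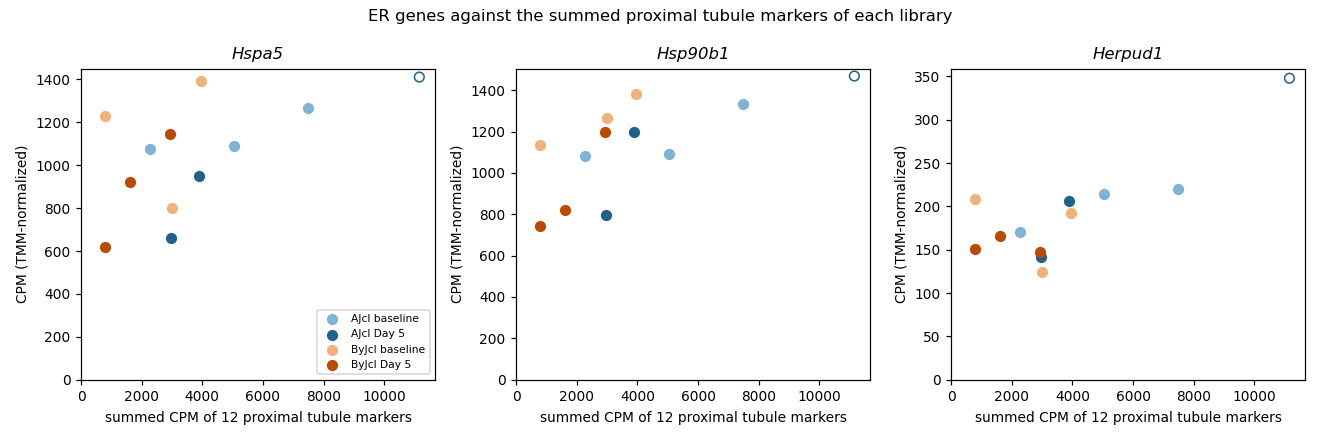
CPM of Hspa5, Hsp90b1 and Herpud1 (y axes, from 0) against the summed CPM of 12 proximal tubule markers (x axes), 1 point per library coloured by group. The open circle, AJcl Day 5 replicate 1, is at the right end with a tubule sum of 11160 CPM and at the top of each panel.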

How the data were processed

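Libraries were poly(A)-selected, strand-specific and paired-end. The authors used Trimmomatic for trimming, STAR for alignment (GRCm39) and featureCounts for gene counts, and deposited these counts unnormalized, 1 table for baseline and 1 for Day 5. Annotation version and strand setting of the counting are not given in the sources used here. Of counts from 1 to 49, 77.1% to 82.9% per library were even. If both mates of a pair were counted, 1 fragment gives 2 counts, and the printed counts and the 3-count floor then stand for fewer fragments than counts. With the counts halved, Asns and Ppp1r15a were the 2 of the 10 genes called in ByJcl. Counts were analysed with edgeR 4.0.16 in R 4.3.3 (filterByExpr by group, TMM, quasi-likelihood test, Benjamini-Hochberg adjustment, threshold 0.05). The fit had 1 coefficient per group, 11 libraries and 7 residual degrees of freedom, and the procedure was tested on simulated data. DESeq2 1.42.0, other scalings and filters, all 12 libraries, a replicate block, a proximal tubule covariate and leaving out each library were alternatives. Levels are TMM-normalized CPM over 12 libraries. The 10 genes and all lists were chosen with earlier results of these data known. Named were all 10 genes, the 6 sensors and kinases, and per other response list and comparison at most 3 called genes in each direction, ranked by adjusted p, and genes beyond these are said to be named after their values were seen. Of the listed symbols, 11 were matched through RefSeq synonyms, and Nars1 was not matched. Coordinates are from GENCODE vM39 (GRCm39) and promoters from RefSeq (GRCm38.p6). Figures were made with Python 3.11.15 and matplotlib 3.10.9.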

Additional observations from a re-analysis of the deposited data

Results flagged for a closer look

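The change of Asns with ADR differed between the substrains in DESeq2's test of the interaction, by a log2 value of 1.34 (adjusted p = 0.0295), and edgeR did not call it (1.31, adjusted p = 0.620). Asns at Day 5 exceeded every baseline library of its own substrain in 3 of 3 ByJcl libraries and in 0 of 3 AJcl libraries. Of all tested genes, 33.1% were without overlap between the times in ByJcl and 13.4% in AJcl, in either direction, over all 12 libraries. Between substrains Asns was lower in ByJcl at baseline (log2FC -0.74, edgeR adjusted p = 0.447) and higher at Day 5 (0.58, edgeR adjusted p = 0.286). AJcl Day 5 replicate 1, left out of the main fit, held more Hspa5 (1411 CPM), Hsp90b1 (1468 CPM) and Herpud1 (347.8 CPM) than each of the other 11 libraries, controls included. Its proximal tubule marker sum, 11160 CPM, was also the highest, and the part of tubule RNA in these levels was not tested.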

How the results depend on the processing

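Under the alternatives run (up to 21 per comparison), edgeR's count of the 10 genes stayed at 0 at baseline, at Day 5, in AJcl and for the interaction, and DESeq2's Wald test gave 1 for the interaction (Asns, 1.34). In ByJcl the count ranged from 1 to 4 when 1 library was left out, where an AJcl Day 5 arm of 1 library was assumed to vary like the other groups. Atf4 was called by DESeq2 (0.47), without AJcl baseline replicate 1 (0.46) and without ByJcl Day 5 replicate 3 (0.55). Of 993 values that neither fit called, 58 had the other sign. ATF4 and CHOP targets called in ByJcl numbered 6 to 13 when 1 library was left out, and ER chaperones 0 to 6. ER chaperones called were 4 with DESeq2 (1 higher and 3 lower) and 1 each, lower, over all 12 libraries, with the groups compared only, and with the replicate block. The count of all genes called at baseline was 101 with DESeq2, 15 with the groups compared only and 12 to 29 with 1 library left out. At Day 5 it was 535 with DESeq2, 56 with no filter beyond 1 count, 72 over all 12 libraries, 6 with the groups compared only and 9 to 218 with 1 library left out. In AJcl it was 301 with DESeq2, 99 with no filter, 130 with the tubule covariate, 86 with that covariate over all 12 libraries (an alternative chosen after seeing the data, as were those of the lists), 33 with the groups compared only and 11 to 180 with 1 library left out. In ByJcl it was 1197 over all 12 libraries and 680 to 2056 with 1 library left out, and for the interaction 22 with DESeq2 and 0 to 5 with 1 library left out. Apart from fewer libraries in a fit, the cause of these shifts was not tested.

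With the replicate number as a block, all genes called in AJcl were 26 against 53 without it. Correlations of same-numbered deviations lay between -0.39 and 0.531, so the numbers were not taken to pair the libraries. The block changed no call of the 10 genes. Groups held 2 or 3 libraries, and the effect of depth on precision was not tested.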
